A study of Homo sapiens with 24 samples.

Results

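LNCaP, an established line of human prostate cancer cells whose growth and gene expression depend on androgen signalling, was compared after 48 h with Siomycin A and after 48 h with the solvent DMSO. Siomycin A, an antibiotic of the thiopeptide class, is known as a proteasome inhibitor that also lowers the transcription factor FOXM1. The comparison holds 6 arrays, 3 for each treatment, of the 24 in the study, and was defined by the labels and not by any measured value. The LNCaP cells were grown in HAMs F12 medium with 10% FBS in 6-well plates. For the dose of Siomycin A the protocol has 0.5 microM where the titles have 5 microM. The sample descriptions write it as 05mikroM, without a decimal point. Which dose was used is not known here. The study also treated LNCaP cells for 24 h, and treated PC3 cells, a prostate cancer line that grows without androgen signalling, in RPMI 1640 medium, also with 10% FBS, at both times. Each of these groups has 3 arrays. Nothing in the labels says that the 3 arrays of a group came from separate cultures, so the p-values below measure the spread between arrays, which may be technical.

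Biotin-labelled cRNA made from total RNA was read on Illumina bead arrays, on which each probe gives an intensity. On the 6 arrays between 17956 and 18395 of 47318 probes lay above background, the background centres were between 108.8 and 111.5 intensity units, and each array correlated best with another array of its own group (r of at least 0.992). Levels are given as normalized log2 intensity, so a difference of 1 is a change of 2-fold, and levels of different genes are not comparable. Differences were tested with limma over 13344 genes, with Benjamini-Hochberg adjusted p-values, and a gene was called where its adjusted p was under 0.05. Errors after ± are moderated standard errors from limma for the log2 difference, with n = 3 arrays in each group. They rest on a gene's spread within all 8 groups of the 24 arrays, PC3 included, and on information shared between genes. They can therefore be larger or smaller than the spread of the 6 arrays printed for a gene.

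The cells carried the genes of their line. The summed linear intensity of 8 tested LNCaP markers was 16990 to 18840 on the Siomycin A arrays, against 7678 to 8307 on the DMSO arrays, and TMPRSS2, FOLH1, STEAP2 and SLC45A3 among them rose. KLK2 and ACP3 among these markers fell, and KLK3 (0.01) and HOXB13 (-0.07) did not pass. The 10 PC3 markers summed to 632.1 to 683.9 with Siomycin A and 589.3 to 666.1 with DMSO, and CD44, AXL and ANXA1 among them lay above background on 0 of the 6 arrays. Of the 10, 3 were called higher and 1 lower: MET, a growth factor receptor above background on all 6 arrays, rose by 0.52, CXCL8, a chemokine above background on 1 Siomycin A and 2 DMSO arrays, gave 0.66 on 1 of 2 disagreeing probes, and the other calls were the dim CD44 and ANXA1. The call of MET was lost without DMSO replicate 3 (adjusted p = 0.0858) or Siomycin A replicate 2 (adjusted p = 0.0789). It was also lost without background correction, as in the authors' log2 table (0.24, adjusted p = 0.069). The 4 tested fibroblast markers summed to 113.0 to 152.4 with Siomycin A and 118.5 to 156.1 with DMSO, and none of them passed the test. The 4 tested leukocyte and endothelial markers summed to 214.2 to 247.5 with Siomycin A and 300.3 to 339.5 with DMSO. PECAM1 among them was not above background on any of the 6 arrays, and VWF, the clotting factor of endothelium, fell by 1.29 ± 0.13 (adjusted p = 1.3e-07). Whether the line markers or VWF have a part in the results below was not tested.

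Several systems named below are known to respond to damaged or unfinished proteins. In the integrated stress response, kinases slow protein synthesis while the factor ATF4 is made and turns on genes for amino acid supply and for the factor CHOP (DDIT3). Cells whose proteasome is blocked are known to raise proteasome genes through NFE2L1 and chaperones through heat shock factor. Genes of the cell cycle are switched on in waves, those of DNA replication by E2F factors and those of mitosis by MYB-MuvB and FOXM1, which act at short promoter elements. In prostate cells the androgen receptor drives secreted proteases and other differentiation genes.

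Of the 13344 genes tested, 4987 (37.4%) were called at 48 h. Of these 2530 (19.0%) were higher and 2457 (18.4%) lower with Siomycin A than with DMSO. A change of at least 2-fold was found for 314 higher genes (2.35%) and 452 lower genes (3.39%). The median log2 change of all tested genes was 0.0109. In 3448 genes (25.8%) all Siomycin A arrays lay above all DMSO arrays, and in 3302 (24.7%) all lay below. These shares are the background against which the counts in gene groups below are to be read. The lists were drawn up by hand with earlier results of these data known. Their counts against this background are therefore a description and not a test.

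The largest rises held secreted proteins, stress factors and signalling proteins. S100P, a small calcium-binding protein of epithelia, was at 11.41, 11.48 and 11.46 on the Siomycin A arrays, against 7.58, 7.52 and 7.47 on the DMSO arrays. The groups were far apart and each was tight, with a change of 3.93 ± 0.14 (adjusted p = 6.7e-14). SERPINA3, a secreted inhibitor of proteases, was at 8.94, 8.99 and 8.86, against 5.10, 5.21 and 5.66 with DMSO, a change of 3.60 ± 0.18 (adjusted p = 7.5e-12). NIBAN1, a gene known to rise under stress to the endoplasmic reticulum, was at 8.92, 8.81 and 8.92, against 5.06, 5.83 and 5.65 with DMSO (3.37 ± 0.16, adjusted p = 2.8e-12). The DMSO arrays of SERPINA3 and NIBAN1 spread more than those of S100P. The treatments did not overlap in any of these genes, as the selection of the 12 largest rises required. GDF15, a secreted stress cytokine of the TGF-beta family, was at 14.06, 14.30 and 14.15, against 11.82, 11.85 and 11.82 (2.34 ± 0.09, adjusted p = 1.7e-13). The other genes among the 12 largest rises were DDIT3 (3.58), VLDLR-AS1 (2.65), an RNA antisense to the VLDL receptor gene, RASD1 (2.61), a small GTPase induced by steroids, ATF3 (2.40), CFAP69 (2.25), a cilium and flagellum protein, TRIB3 (2.22), ALDH2 (2.20), the mitochondrial acetaldehyde dehydrogenase, and CREBRF (2.18).

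**Figure D1:**
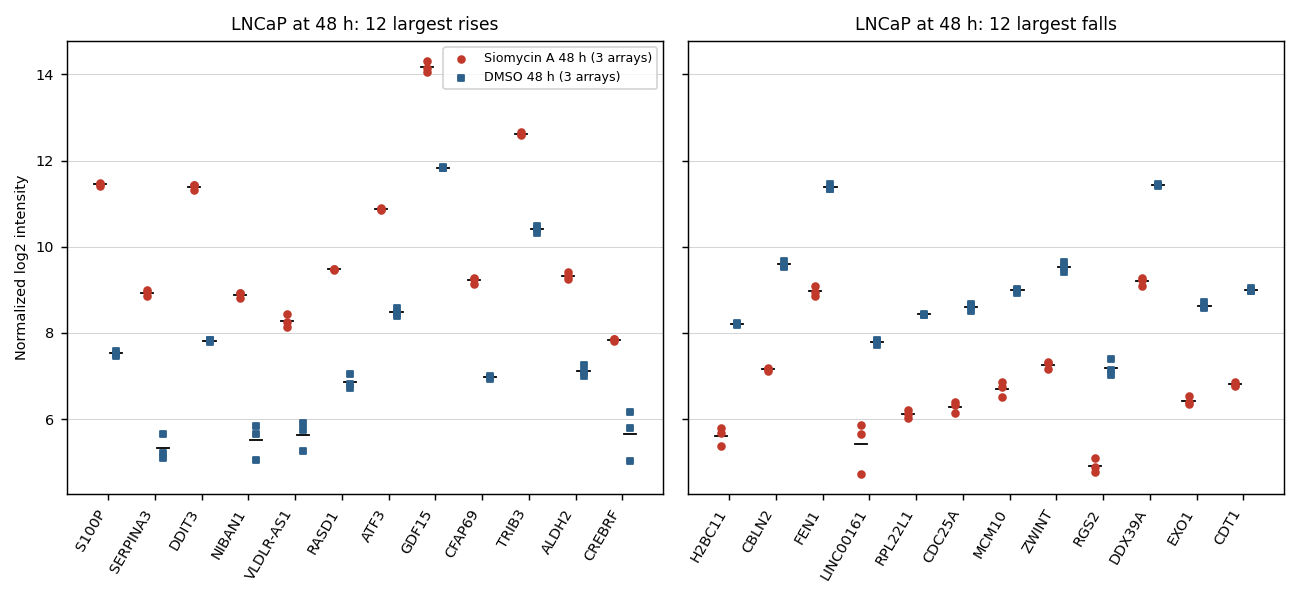
Normalized log2 intensity (vertical axis) of the 12 genes with the largest rises and the 12 with the largest falls in LNCaP at 48 h, with 1 point for each of the 3 Siomycin A arrays (red circles) and the 3 DMSO arrays (blue squares) and a line at each mean. In each gene the arrays of both treatments do not overlap, as the selection required, with S100P the farthest apart (3.93) among the rises and H2BC11 (-2.59) among the falls.

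Among the 12 largest falls, FEN1, MCM10 and CDT1 are on the list of DNA replication genes and EXO1 on that of homologous recombination. H2BC11, a gene of the core histone H2B, was at 5.67, 5.38 and 5.78 with Siomycin A, against 8.20, 8.19 and 8.23 with DMSO (-2.59 ± 0.16, adjusted p = 1.5e-10). FEN1, the flap endonuclease that trims Okazaki fragments, was at 9.10, 8.85 and 8.96, against 11.35, 11.35 and 11.45 (-2.42 ± 0.13, adjusted p = 3.2e-11). DDX39A, an RNA helicase of messenger RNA export, was at 9.27, 9.23 and 9.09, against 11.45, 11.41 and 11.44 (-2.24 ± 0.07, adjusted p = 1.3e-14). These 3 genes had no array of one treatment within the range of the other, as the selection of the 12 required. CDC25A (-2.31), the phosphatase that activates CDK2, MCM10 (-2.28) and CDT1 (-2.20), which prepare replication origins, EXO1 (-2.21), an exonuclease of repair, and ZWINT (-2.27), a kinetochore protein, were among the 12 as well. For ZWINT 2 of its 3 probes had this sign. The other 4 were CBLN2 (-2.44), a secreted synapse protein, RPL22L1 (-2.31), a paralogue of a ribosomal protein, LINC00161 (-2.38), above background on 2 of 3 Siomycin A arrays, and RGS2 (-2.27), an inhibitor of G-protein signalling that was above background on 1 of 3 Siomycin A arrays.

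The genes of the integrated stress response rose almost as a whole: of 31 tested, 30 rose and 0 fell, against 19.0% of all genes, and their median log2 change was 1.06. DDIT3, which encodes the factor CHOP, was at 11.33, 11.43 and 11.44 on the Siomycin A arrays, against 7.84, 7.83 and 7.79 on the DMSO arrays. The groups were far apart, with a change of 3.58 ± 0.08 (adjusted p = 6.0e-17). ATF3, a repressor and activator downstream of ATF4, was at 10.87, 10.90 and 10.86, against 8.46, 8.58 and 8.39 (2.40 ± 0.08, adjusted p = 2.5e-14). TRIB3, a pseudokinase that feeds back on the pathway, was at 12.59, 12.61 and 12.66, against 10.41, 10.31 and 10.48 (2.22 ± 0.08, adjusted p = 1.3e-13). ATF4 itself, named here outside the rule, had a smaller rise of 0.77 ± 0.07 (adjusted p = 3.5e-08). CHAC1, an enzyme that breaks down glutathione, was not above background on any DMSO array and was at least 4.25-fold higher with Siomycin A (fitted change 2.17, adjusted p = 8.2e-09). PCK2 (2.02), DDIT4 (1.89), STC2 (1.88), CTH (1.75) and CEBPG (1.71) also rose, which act in mitochondrial gluconeogenesis, restraint of mTOR, secretion, cysteine synthesis and transcription. The 1 member that did not pass was SLC38A2, a transporter of neutral amino acids, with 0.38 ± 0.19 (adjusted p = 0.13).

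Aminoacyl-tRNA synthetases, which load tRNAs with amino acids and are partly under ATF4, went with them. Of 18 tested, 12 rose and 4 fell, with a median of 0.52. SARS1, for serine, was at 10.87, 10.86 and 10.90, against 9.20, 9.10 and 9.23 with DMSO (1.70 ± 0.09, adjusted p = 3.2e-11). AARS1 (1.02 ± 0.09) for alanine and GARS1 (0.96 ± 0.07) for glycine followed. The largest fall was FARSA, a subunit of the phenylalanine enzyme, with -0.87 ± 0.09 (adjusted p = 2.6e-07), and FARSB, its other subunit, fell by 0.31. HARS1, for histidine, fell by 0.30 (adjusted p = 0.028). This call was lost when any 1 of 5 of the 6 arrays was left out (adjusted p up to 0.0787). It was also lost with the 12 LNCaP arrays alone (adjusted p = 0.0635).

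Genes of folding and disposal in the endoplasmic reticulum moved in part. Of 23 tested, 9 rose and 2 fell, with a median of 0.18. DNAJB9, a co-chaperone that restrains the sensor IRE1, was at 9.98, 10.14 and 10.24, against 8.61, 8.71 and 8.62 with DMSO (1.47 ± 0.14, adjusted p = 5.9e-08). HSPA5, the chaperone BiP, was at 8.10, 8.29 and 8.14, against 7.37, 7.10 and 6.85 (1.07 ± 0.11, adjusted p = 2.5e-07). XBP1, the factor spliced by IRE1, rose by 0.80 ± 0.07 (adjusted p = 8.8e-09). MANF (-0.37 ± 0.09) and SDF2L1 (-0.33 ± 0.08), a secreted survival factor and a co-chaperone that usually rise together with HSPA5, both fell.

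Promoter sequences of 4 of these genes are shown because they rose and hold a known element of their pathway. Promoters are taken from RefSeq (GRCh38.p14), 250 bases before and 50 after the annotated start, and 10612 tested genes had one. The amino acid response element, searched as TGATGNAA on both strands, was found in 5 of 26 promoters of integrated stress response genes (19.2%) and 5 of 15 of the synthetases (33.3%), against 1.95% of all tested genes and 3.67% of all 27305 promoters. All 5 holders in either list rose, but so did 30 of 31 tested stress response genes and 12 of 18 synthetases. The count in the first list therefore does not set its holders apart. The ER stress response element, searched on both strands as CCAAT and CCACG with any 9 bases between them (it includes a CCAAT box), was found in 6 of 22 promoters of the endoplasmic reticulum list (27.3%), against 0.141% of tested genes and 0.0806% of all promoters, and 3 of the 6 holders rose. Over all genes, list members included, the amino acid response element was in 12 of 257 promoters (4.67%) of genes that rose at least 2-fold. It was in 9 of 363 (2.48%) of those that fell at least 2-fold. The ER stress response element was in 1 of these 257 and 0 of these 363. Of the list members, the holders with the largest rises are printed 5′ to 3′ on the gene's strand, with the match in capitals. In ATF3 (chr1:212565157-212565456, plus strand) the match starts at base -191 from the annotated start, in CHAC1 (chr15:40953221-40953520, plus strand) at -209, in AARS1 (chr16:70289457-70289756, minus strand) at -187 and in HSPA5 (chr9:125241294-125241593, minus strand) at -66. A match is a description of these letters and shows no binding, and DDIT3, with the largest rise of the list, holds no match to TGATGNAA in this window.
ATF3: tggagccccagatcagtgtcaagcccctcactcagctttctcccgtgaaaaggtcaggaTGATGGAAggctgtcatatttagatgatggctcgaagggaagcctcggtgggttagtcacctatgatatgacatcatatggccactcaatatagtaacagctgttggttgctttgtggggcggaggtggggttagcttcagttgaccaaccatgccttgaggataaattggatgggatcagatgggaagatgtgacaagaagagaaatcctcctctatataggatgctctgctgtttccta
CHAC1: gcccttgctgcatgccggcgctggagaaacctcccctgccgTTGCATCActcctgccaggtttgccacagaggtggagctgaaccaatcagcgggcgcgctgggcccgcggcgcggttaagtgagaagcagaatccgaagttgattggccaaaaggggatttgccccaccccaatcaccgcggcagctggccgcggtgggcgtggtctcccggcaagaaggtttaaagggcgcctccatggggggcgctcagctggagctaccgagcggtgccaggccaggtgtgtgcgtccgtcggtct
AARS1: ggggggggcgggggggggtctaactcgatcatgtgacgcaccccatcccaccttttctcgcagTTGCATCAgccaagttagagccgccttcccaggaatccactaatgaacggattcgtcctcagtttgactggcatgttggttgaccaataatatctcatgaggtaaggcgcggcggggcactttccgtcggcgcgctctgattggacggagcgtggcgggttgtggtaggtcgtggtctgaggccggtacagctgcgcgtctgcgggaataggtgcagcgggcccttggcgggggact
HSPA5: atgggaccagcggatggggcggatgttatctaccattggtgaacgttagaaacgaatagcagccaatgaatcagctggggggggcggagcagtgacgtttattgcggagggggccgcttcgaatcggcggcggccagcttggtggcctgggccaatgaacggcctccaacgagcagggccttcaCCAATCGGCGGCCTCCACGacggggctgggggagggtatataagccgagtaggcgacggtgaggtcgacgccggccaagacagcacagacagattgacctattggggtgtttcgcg

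Mitosis genes fell nearly without exception. Of 48 tested, 47 fell and 0 rose, against 18.4% of all genes, and the median was -1.39. BIRC5 (survivin), a subunit of the chromosomal passenger complex, was at 8.02, 7.83 and 8.02 with Siomycin A, against 10.02, 10.26 and 10.18 with DMSO (-2.20 ± 0.10, adjusted p = 2.6e-12). AURKB, the kinase of the same complex, was at 7.30, 7.38 and 7.48, against 9.39, 9.49 and 9.40 (-2.04 ± 0.14, adjusted p = 4.3e-10). HMMR, which binds spindle microtubules, fell by 1.81 ± 0.10 (adjusted p = 3.4e-11). FOXM1 was at 6.84, 6.65 and 6.81, against 8.17, 8.11 and 8.15 (-1.38 ± 0.12, adjusted p = 1.3e-08), so the factor changed about as much as the median of its list. MELK, a mitotic kinase that the compound is also known to lower, was at 9.0, 8.69 and 8.90, against 10.55, 10.66 and 10.60 (-1.74 ± 0.10, adjusted p = 1.1e-10). MYBL2, the 1 member that did not pass (adjusted p = 0.74), was not above background on any of the 6 arrays.

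DNA replication genes had the lowest median of all lists, -1.51, with 35 of 37 lower and 0 higher. Besides FEN1, MCM10 and CDT1, all 6 subunits of the MCM helicase fell, MCM4 the most (-2.10) and MCM3 the least (-1.28). Both genes that did not pass were POLE, a DNA polymerase (-0.08, adjusted p = 0.77), and E2F1, a factor of this gene class (-0.07, adjusted p = 0.89), although E2F2 was at 5.96, 6.92 and 6.43, against 8.47, 8.63 and 8.45 with DMSO (-2.08 ± 0.24, adjusted p = 6.8e-07). Genes of homologous recombination and the Fanconi pathway fell in 16 of 19 and rose in 0, with a median of -1.13. EXO1 was at 6.52, 6.36 and 6.39, against 8.59, 8.72 and 8.60 (-2.21 ± 0.18, adjusted p = 8.2e-09), and CHEK1, the checkpoint kinase, was at 6.77, 6.55 and 6.66, against 8.79, 8.76 and 8.79 (-2.12 ± 0.12, adjusted p = 5.1e-11). FANCB, a subunit of the Fanconi core complex, was not above background with Siomycin A and was at least 3.64-fold lower. XRCC2 (-0.34), PALB2 (-0.34) and FANCE (-0.04) did not pass.

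The 2 cell cycle lists held different promoter letters. The cell cycle homology region, searched as TTTGAA on both strands, was found in 27 of 41 promoters of mitosis genes (65.9%) and in 1 of 33 of replication genes (3.03%), against 10.3% of tested genes and 15.4% of all promoters. An E2F site, searched as TTTGGCGC or TTTCCCGC on both strands, was found in 2 of 41 mitosis promoters (4.88%) and in 17 of 33 replication promoters (51.5%), against 3.5% of tested genes and 2.31% of all promoters. All 27 mitosis genes with the first motif fell, and 15 of the 17 replication genes with the second. Of all tested members of these lists 47 of 48 and 35 of 37 fell, so these counts do not set the holders apart. POLE and E2F1, the replication genes that did not pass, both hold the E2F site. Over all genes, the first motif was in 94 of 363 promoters (25.9%) of genes that fell at least 2-fold. It was in 20 of 257 (7.78%) of those that rose at least 2-fold. Members of the 2 lists were not removed from these sets, so these counts are not separate from those above. The E2F site was in 36 of these 363 (9.92%) and 3 of 257 (1.17%). The 2 holders with the largest falls in each list are printed 5′ to 3′, with the matches in capitals. In HMMR (chr5:163460382-163460681, plus strand) the first of 2 matches starts at base -28 from the annotated start, in KIF4A (chrX:70289854-70290153, plus strand) the match starts at -34, in CDT1 (chr16:88803539-88803838, plus strand) at -35 and in E2F2 (chr1:23531184-23531483, minus strand) at -42. KIF4A, a kinesin of the central spindle, was at 6.14, 5.87 and 6.25, against 7.74, 7.68 and 7.74 with DMSO (-1.63 ± 0.12, adjusted p = 8.8e-10).
HMMR: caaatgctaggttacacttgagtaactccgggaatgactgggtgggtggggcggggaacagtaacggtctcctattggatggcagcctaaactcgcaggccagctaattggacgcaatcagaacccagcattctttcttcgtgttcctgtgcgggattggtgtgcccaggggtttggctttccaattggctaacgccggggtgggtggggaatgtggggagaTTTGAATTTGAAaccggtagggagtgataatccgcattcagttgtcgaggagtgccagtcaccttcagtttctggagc
KIF4A: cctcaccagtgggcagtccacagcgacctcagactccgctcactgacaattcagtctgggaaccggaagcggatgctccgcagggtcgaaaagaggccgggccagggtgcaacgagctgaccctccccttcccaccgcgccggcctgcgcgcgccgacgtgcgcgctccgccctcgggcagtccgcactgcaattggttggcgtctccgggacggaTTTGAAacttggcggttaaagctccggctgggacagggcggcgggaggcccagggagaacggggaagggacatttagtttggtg
CDT1: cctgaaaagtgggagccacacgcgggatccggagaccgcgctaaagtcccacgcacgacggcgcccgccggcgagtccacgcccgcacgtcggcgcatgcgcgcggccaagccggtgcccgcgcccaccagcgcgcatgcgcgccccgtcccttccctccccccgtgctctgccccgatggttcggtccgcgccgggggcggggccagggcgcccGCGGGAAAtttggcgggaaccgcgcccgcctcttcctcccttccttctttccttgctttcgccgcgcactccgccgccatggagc
E2F2: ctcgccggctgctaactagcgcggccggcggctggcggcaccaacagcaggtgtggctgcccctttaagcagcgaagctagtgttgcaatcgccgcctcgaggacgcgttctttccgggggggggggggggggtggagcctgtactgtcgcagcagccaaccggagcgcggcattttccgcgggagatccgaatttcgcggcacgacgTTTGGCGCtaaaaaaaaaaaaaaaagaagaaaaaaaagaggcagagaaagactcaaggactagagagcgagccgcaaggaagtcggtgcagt

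Of 18 genes that govern entry into the cycle, 4 rose and 6 fell, against 19.0% and 18.4% of all genes. CDKN1A, the CDK inhibitor p21, was at 13.16, 13.21 and 13.21 with Siomycin A, against 11.81, 11.87 and 11.76 with DMSO (1.38 ± 0.12, adjusted p = 2.5e-08). CDKN1B, the inhibitor p27, rose by 0.74 ± 0.09 (adjusted p = 2.0e-06), and RBL2, a pocket protein that represses cycle genes in resting cells, by 0.66 ± 0.11 (adjusted p = 4.6e-05). CDK2 was at 8.79, 8.59 and 8.69, against 10.01, 10.04 and 10.06 (-1.35 ± 0.12, adjusted p = 3.3e-08). SKP2, the ubiquitin ligase subunit that targets p27, fell by 1.01 ± 0.09 (adjusted p = 4.4e-08). RBL1, a pocket protein of cycling cells, was at least 2.68-fold lower, since it was not above background with Siomycin A. CCND1, a D-type cyclin, gave -0.08 ± 0.08 (adjusted p = 0.51), and the CDK inhibitors CDKN2A (-0.24), CDKN2D (0.05) and CDKN1C (0.21) did not pass either.

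Targets of p53 did not move as one. Of 24 tested, 8 rose and 3 fell, with a median of 0.17. GDF15, GADD45A and CDKN1A had the largest rises, and GADD45A, a DNA damage and stress protein, was at 9.61, 9.85 and 9.62, against 7.81, 7.93 and 7.80 (1.85 ± 0.10, adjusted p = 4.5e-11). MDM2, the ligase that p53 itself induces, gave 0.12 ± 0.22 (adjusted p = 0.75). PLK2, a kinase, was not above background with Siomycin A and was at least 2.10-fold lower, and TRIAP1, an inhibitor of apoptosis, fell by 0.65 ± 0.09. ZMAT3, an RNA-binding protein, had -0.93 ± 0.18 (adjusted p = 0.00026) on its brightest probe, while its other 2 probes were called in the opposite direction, and the mean of its probes gave 0.597 (adjusted p = 2.56e-05), so its direction is uncertain.

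Among 27 regulators of apoptosis, 10 rose and 2 fell, and genes that promote death rose beside genes that restrain it. PMAIP1 (NOXA), a BH3-only protein that neutralises MCL1, was at 7.98, 8.14 and 8.02, against 7.01, 6.37 and 6.76 (1.34 ± 0.20, adjusted p = 2.2e-05). HRK, another BH3-only protein, was not above background with DMSO and was at least 2.25-fold higher. XIAP, an inhibitor of caspases, was at 6.58, 6.49 and 6.63, against 5.53, 5.89 and 5.38 (0.97 ± 0.19, adjusted p = 0.00034). BID, which carries the death receptor signal to mitochondria, fell by 0.45 ± 0.11 (adjusted p = 0.0025). Its call was lost with the mean of its 3 probes (adjusted p = 0.062).

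Proteasome subunits were lower or did not pass at 48 h. Of 31 subunits and assembly factors tested, 13 fell and 0 rose, against 18.4% and 19.0% of all genes, with a median of -0.18. PSMG1, an assembly chaperone, was at 10.41, 10.40 and 10.28, against 11.16, 11.20 and 11.23 (-0.83 ± 0.09, adjusted p = 2.2e-07). PSMC3, an ATPase of the 19S cap, was at 10.34, 10.35 and 10.20, against 10.92, 11.00 and 11.01 (-0.68 ± 0.08, adjusted p = 9.3e-07). PSMA2, a subunit of the 20S core, was at 8.13, 8.13 and 8.04, against 8.71, 8.49 and 8.66 (-0.52 ± 0.11, adjusted p = 0.00082). The largest positive value was PSMC4, with 0.48 ± 0.19 (adjusted p = 0.06). NFE2L1, the factor that drives these genes when the proteasome is blocked, had risen at the level of RNA, with 9.84, 9.93 and 9.88 against 8.39, 8.39 and 8.45 (1.47 ± 0.08, adjusted p = 4.5e-11).

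Cytosolic chaperones fell as well: 11 of 23 tested genes fell and 0 rose, with a median of -0.31. HSPH1, a nucleotide exchange factor for HSP70, was at 10.06, 10.01 and 10.03, against 11.25, 11.39 and 11.34 (-1.29 ± 0.07, adjusted p = 1.1e-11). CHORDC1, a co-chaperone of HSP90, gave -1.06 ± 0.15 (adjusted p = 1.0e-05) and DNAJA1, an HSP40, -0.86 ± 0.06 (adjusted p = 5.3e-10). Genes of the oxidative stress factor NRF2 rose in 11 of 21 and fell in 2, with a median of 0.29. SLC7A11, the cystine importer, was at 8.35, 8.29 and 8.37, against 6.73, 6.74 and 6.74 (1.60 ± 0.10, adjusted p = 2.0e-10), and is also a target of ATF4. HMOX1, the haem oxygenase, was at 7.55, 7.34 and 7.42, against 6.40, 6.32 and 6.42 (1.06 ± 0.13, adjusted p = 2.0e-06). PRDX1 (-0.28) and TXN (-0.20), which detoxify peroxide and reduce thiols, fell, and the call of TXN was lost in 4 alternatives (adjusted p = 0.0509 to 0.0845).

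Autophagy genes moved both ways, and more lysosomal genes rose than fell. In the list of ubiquitin and autophagy genes, 9 of 19 rose and 6 fell, with a median of 0.35. GABARAPL1, an autophagosome membrane protein, was at 9.63, 9.85 and 9.81, against 8.0, 7.87 and 7.96 (1.82 ± 0.09, adjusted p = 7.0e-12). MAP1LC3B, from the same family, gave 1.22 ± 0.08 (adjusted p = 2.4e-10), and WIPI1, an early autophagy factor above background on 2 of 3 DMSO arrays, gave 1.254 ± 0.17 (adjusted p = 7.0e-06). BECN1, of the complex that starts autophagosomes, fell by 0.36 ± 0.09 (adjusted p = 0.0044), and VCP, the ATPase that extracts ubiquitinated proteins, by 0.33. UFD1, a cofactor of VCP, gave -1.05 ± 0.22 (adjusted p = 0.00055) and was above background on 1 of 3 Siomycin A arrays. Of 23 lysosomal genes 11 rose and 2 fell, with a median of 0.28. CTSD, PSAP and NPC1 (a protease, an activator of lipid breakdown and a cholesterol exporter) rose by 0.57 to 0.70 on the log2 scale. Against them GLA, the alpha-galactosidase, was at 8.77, 8.61 and 8.73, against 10.05, 10.05 and 10.08 (-1.36 ± 0.07, adjusted p = 1.4e-11), and MCOLN1, a calcium channel of the lysosome, fell by 1.15 ± 0.09.

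**Figure D2:**
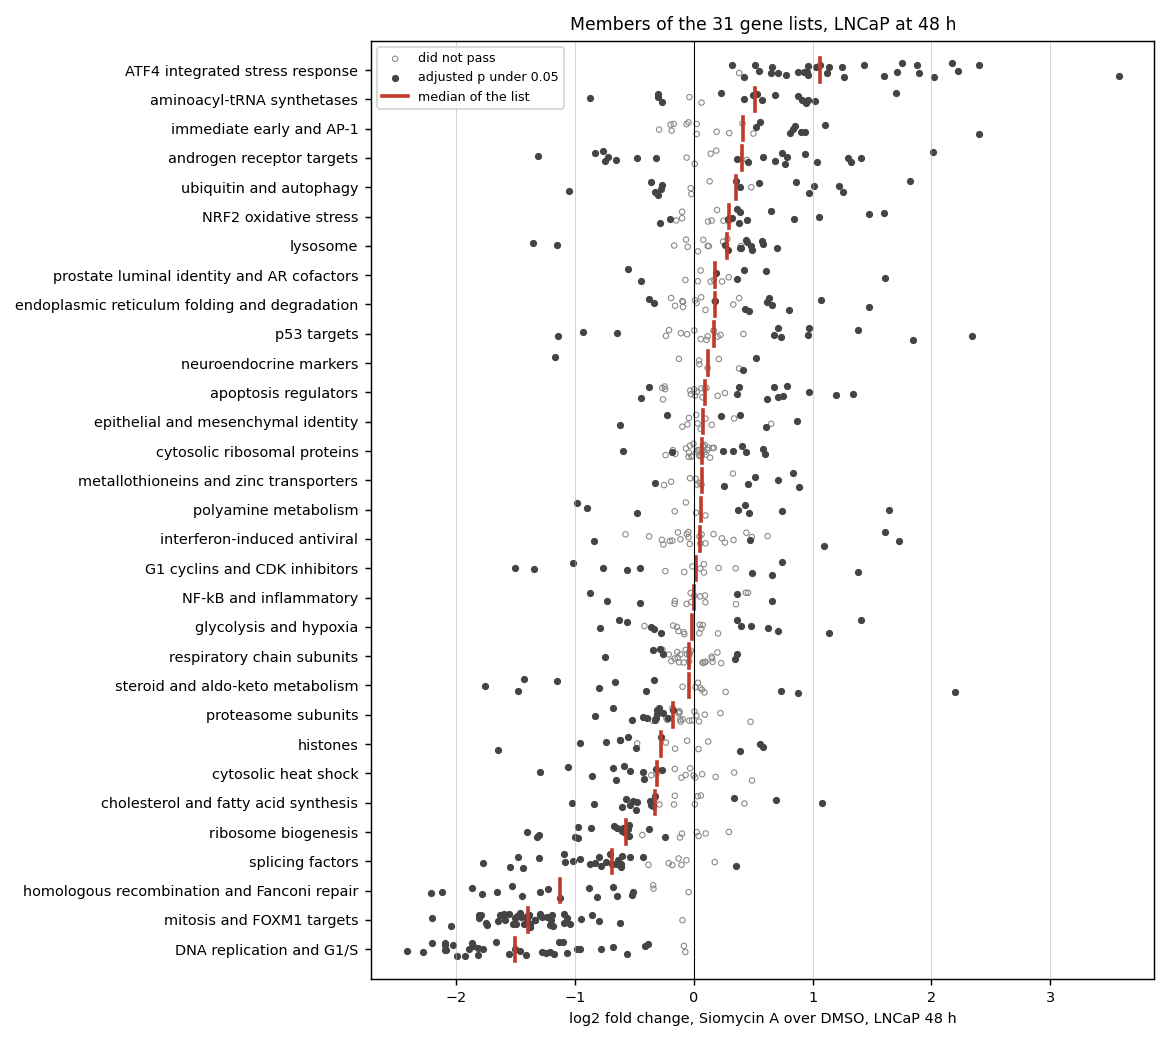
Log2 fold change of Siomycin A over DMSO in LNCaP at 48 h (horizontal axis) for each tested member of 31 gene lists (1 row per list, ordered by median), with called genes filled, other genes open and a red bar at the list median. The medians run from -1.51 for DNA replication to 1.06 for the integrated stress response, and most other lists hold members on both sides of 0.

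Targets of the androgen receptor split. Of 26 tested, 13 rose and 8 fell, against 19.0% and 18.4% of all genes, with a median of 0.41, and the receptor's own transcript was not analysed here. TMPRSS2, an androgen-driven surface protease, was at 12.62, 12.62 and 12.81 with Siomycin A, against 10.56, 10.81 and 10.63 with DMSO (2.02 ± 0.23, adjusted p = 8.2e-07). NDRG1, a stress and differentiation protein that also answers to hypoxia, was at 9.90, 10.21 and 9.93, against 8.47, 8.56 and 8.80 (1.40 ± 0.10, adjusted p = 2.0e-09). ZBTB16, a transcription repressor, was at 9.31, 9.46 and 9.51, against 8.11, 8.14 and 8.07 (1.32 ± 0.15, adjusted p = 5.2e-07). In each of these genes the lowest Siomycin A array was at least 1 log2 unit above the highest DMSO array. KLK3, which encodes PSA, was at 7.17, 7.27 and 7.43, against 7.42, 7.30 and 7.13, with overlapping groups and a difference of 0.01 ± 0.22 (adjusted p = 0.98). KLK2, the neighbouring kallikrein, fell by 0.48 ± 0.15 (adjusted p = 0.018). This call was lost without DMSO replicate 2 (adjusted p = 0.07) and with the 12 LNCaP arrays alone (adjusted p = 0.0533). KLK4, a further kallikrein, was at 12.70, 12.79 and 12.85, against 11.44, 11.54 and 11.48 (1.29 ± 0.11, adjusted p = 9.7e-09). ACP3, the prostatic acid phosphatase, was at 6.51, 6.53 and 6.07, against 7.68, 7.74 and 7.62 (-1.31 ± 0.16, adjusted p = 2.1e-06). CAMKK2, a kinase of AMPK, fell by 0.83 ± 0.16, and TRPM8, a cold-sensing channel that was not above background with Siomycin A, was at least 1.70-fold lower.

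**Figure D3:**
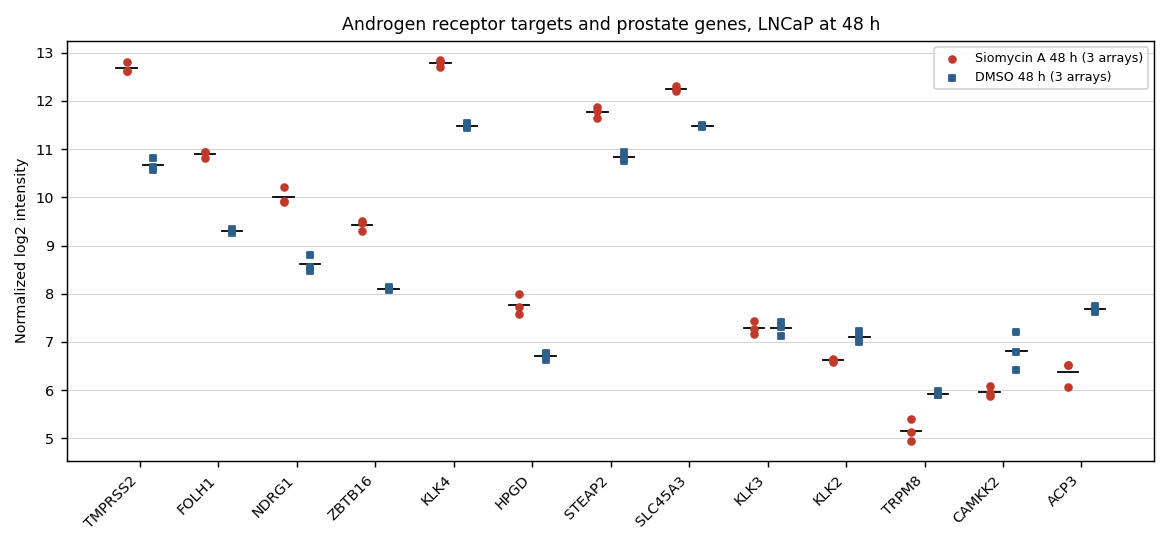
Normalized log2 intensity (vertical axis) of 13 androgen receptor targets and prostate genes on the 3 Siomycin A arrays (red circles) and 3 DMSO arrays (blue squares) of LNCaP at 48 h, with lines at the means. TMPRSS2, FOLH1, NDRG1, ZBTB16 and KLK4 are separated upwards, KLK3 overlaps at 7.13 to 7.43, and ACP3 is separated downwards.

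Among 14 genes of luminal prostate identity and receptor cofactors, 5 rose and 2 fell. FOLH1, the prostate-specific membrane antigen, was at 10.82, 10.95 and 10.95, against 9.29, 9.34 and 9.26 (1.61 ± 0.11, adjusted p = 8.1e-10), and CDH1 (E-cadherin), the adhesion protein of epithelia, rose by 0.61 ± 0.10 (adjusted p = 3.2e-05). SPDEF, an epithelial transcription factor, rose by 0.42 ± 0.13 (adjusted p = 0.014), with the call lost under median centring (adjusted p = 0.12) and without DMSO replicate 2 (adjusted p = 0.053). AMACR, a peroxisomal racemase used as a tumour marker, fell by 0.56 ± 0.17 (adjusted p = 0.013), lost without Siomycin A replicate 1 (adjusted p = 0.055) or DMSO replicate 1 (adjusted p = 0.051). Epithelial and mesenchymal genes rose in 4 of 16 and fell in 2, with CLDN7 (0.87 ± 0.11), a tight junction protein, as the largest rise and TWIST1 (-0.62 ± 0.09), a mesenchymal factor, as the largest fall. Of 9 neuroendocrine markers, ENO2 (0.53 ± 0.11) and TUBB3 (0.41 ± 0.12) rose, and DDC, the aromatic amino acid decarboxylase, was at 10.63, 10.45 and 10.36, against 11.65, 11.69 and 11.60 (-1.17 ± 0.12, adjusted p = 2.0e-07).

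Splicing factors fell in 23 of 31 and rose in 1, with a median of -0.69. SRSF2, an SR protein that defines exons, was at 10.30, 10.39 and 10.27 with Siomycin A, against 12.12, 12.06 and 12.12 with DMSO (-1.77 ± 0.08, adjusted p = 1.6e-12). SRSF3, from the same family, was at 7.86, 7.88 and 7.92, against 9.34, 9.52 and 9.44 (-1.55 ± 0.15, adjusted p = 5.8e-08). HNRNPA1, an hnRNP protein that often opposes SR proteins, was at 7.0, 7.14 and 7.22, against 8.60, 8.70 and 8.49 (-1.48 ± 0.16, adjusted p = 4.6e-07). SRSF4, the 1 gene that rose, gave 0.35 ± 0.06 (adjusted p = 0.00016). Ribosome biogenesis genes fell in 17 of 24 and rose in 0, with a median of -0.57, led by NOP56 (-1.40 ± 0.10) and NOP58 (-1.32 ± 0.12), core proteins of box C/D particles that guide RNA methylation, and NOP16 (-1.31 ± 0.09). MYC, which drives these genes in many tumours, gave 0.02 ± 0.08 (adjusted p = 0.85). The ribosomal proteins themselves changed less: 6 of 35 rose and 2 fell, with a median of 0.07. RPL37 (0.60 ± 0.12) had the largest rise and RPL34 (-0.59 ± 0.08) the largest fall.

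In metabolism the largest falls of the glycolysis list were enzymes of lower glycolysis. LDHA, which makes lactate, was at 12.76, 12.71 and 12.76, against 13.48, 13.61 and 13.49 (-0.79 ± 0.06, adjusted p = 6.7e-09). PKM, pyruvate kinase, fell by 0.63 ± 0.10 (adjusted p = 4.4e-05) and ENO1, an enolase, by 0.56 ± 0.08 (adjusted p = 1.1e-05). The list of glycolysis and hypoxia genes as a whole had 7 rises and 6 falls among 24, with NDRG1, VEGFA (1.14 ± 0.23), the vascular growth factor, and KDM3A (0.71 ± 0.19), a hypoxia-induced demethylase, on the higher side. Of 31 subunits of the respiratory chain 2 were higher and 4 lower, against 19.0% and 18.4% of all genes. With an intensity trend in eBayes these counts were 5 and 7. ATP5MC1, a ring subunit of ATP synthase, was the lowest of them, with -0.74 ± 0.08 (adjusted p = 5.7e-07).

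Genes of cholesterol and fatty acid synthesis fell in 12 of 23 and rose in 3, with a median of -0.33. MVK, mevalonate kinase, was at 4.97, 5.28 and 5.18, above background on 2 of 3 Siomycin A arrays, against 5.88, 6.34 and 6.29 with DMSO (-1.03 ± 0.17, adjusted p = 7.5e-05). FDPS, which makes farnesyl diphosphate, fell by 0.61. FADS2, a desaturase, fell by 0.84 ± 0.26 (adjusted p = 0.014), a call lost without DMSO replicate 3 (adjusted p = 0.076) or Siomycin A replicate 1 (adjusted p = 0.054). SC5D, a late enzyme of cholesterol synthesis, was at 10.46, 10.68 and 10.60, against 9.47, 9.52 and 9.51 (1.08 ± 0.12, adjusted p = 2.9e-07). Among genes of steroid and carbonyl metabolism, 3 of 18 rose and 8 fell. The glucuronyl transferase UGT2B28, which inactivates androgens, was at 9.0, 8.95 and 8.86, against 10.40, 10.34 and 10.49 (-1.48 ± 0.09, adjusted p = 7.4e-11). Its relative UGT2B11 gave -1.43 ± 0.16 (adjusted p = 4.4e-07), and genes of this closely related family may share probe signal. DHRS2, a dehydrogenase, was above background on 1 of 3 Siomycin A arrays and gave -1.76 ± 0.14. ALDH2 was at 9.31, 9.40 and 9.25, against 7.01, 7.10 and 7.25 (2.20 ± 0.15, adjusted p = 4.3e-10).

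Among polyamine genes the largest rise was in breakdown and the largest fall in synthesis. SAT1, the acetyltransferase that starts polyamine breakdown, was at 13.14, 13.15 and 13.29, against 11.53, 11.63 and 11.48 (1.64 ± 0.07, adjusted p = 1.3e-12). SRM, spermidine synthase, was at 9.79, 9.85 and 9.57, against 10.74, 10.68 and 10.75 (-0.99 ± 0.11, adjusted p = 5.1e-07). ODC1, the first enzyme of synthesis, fell by 0.48 ± 0.08 (adjusted p = 6.0e-05), and MAT2A, which makes S-adenosylmethionine, by 0.90 ± 0.11. In the whole list 5 of 12 rose and 3 fell. Of metallothioneins and zinc transporters 6 of 15 rose and 1 fell, among them MT2A (0.71 ± 0.07) and the importer SLC39A10 (0.89 ± 0.16).

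Immediate early genes rose in 9 of 21 and fell in 0, with a median of 0.41. Besides ATF3, which is also on the stress response list, KLF6, a zinc finger factor, was at 8.09, 7.92 and 7.75, against 6.70, 7.03 and 6.72 (1.10 ± 0.11, adjusted p = 6.9e-08), and KLF4, of the same family, gave 0.93 ± 0.18 (adjusted p = 0.00024) with 2 of 3 DMSO arrays above background. Of 28 interferon-induced genes 4 were higher and 1 lower, against 19.0% and 18.4% of all genes, with a median of 0.05. With an intensity trend in eBayes 7 were higher. IRF1, an interferon regulatory factor, was at 7.10, 6.76 and 6.75, against 5.15, 5.12 and 5.16 (1.73 ± 0.14, adjusted p = 5.6e-09), with 1 of 3 DMSO arrays above background. ISG20, an exonuclease, gave 1.61 ± 0.10 (adjusted p = 9.5e-11) and HERC5, the ligase of ISG15, 1.10 ± 0.14 (adjusted p = 2.9e-06). ISG15 itself gave -0.26 and did not pass. NF-kB and inflammatory genes rose in 2 of 17 and fell in 3, against the same 19.0% and 18.4% of all genes. Among them NFKB1 was at 9.75, 9.88 and 9.78, against 10.46, 10.57 and 10.57 (-0.73 ± 0.08, adjusted p = 3.4e-07). Of 17 histone genes 8 fell and 3 rose: H2AX, the variant of DNA breaks, gave -1.65 ± 0.11 (adjusted p = 2.3e-10) and H4C3, a replication-dependent H4 gene, -0.96 ± 0.08 (adjusted p = 5.6e-09), while H2AC6 (0.58) and H2BC21 (0.56), whose transcripts can be polyadenylated, rose. Histone genes are close copies of each other, so signal may be shared between them.

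Set against 24 h in the same line, the changes at 48 h were more numerous. At 24 h 2779 genes were called (20.8%), of which 1396 (10.5%) rose and 1383 (10.4%) fell. Of the 4987 genes called at 48 h, 1019 were higher at both times, 1071 lower at both, 24 higher at 48 h but lower at 24 h, and 16 the reverse. The DMSO arrays of LNCaP differed little between the times, with 73 genes called (0.547%), 45 higher (0.337%) and 28 lower (0.210%) at 48 h. The difference between the 48 h and the 24 h effect passed the test in 1187 genes (8.90%), 601 in the positive (4.50%) and 586 in the negative direction (4.39%). This count was 1642 without Siomycin A replicate 1 of 24 h and 615 with the 12 LNCaP arrays alone. The medians of the cell cycle lists were close at both times: the mitosis median was -1.37 at 24 h and -1.39 at 48 h, and that of replication genes -1.43 and -1.51, with 0 of 37 replication genes differing (4 without Siomycin A replicate 2 of 24 h). Of 48 mitosis genes 6 differed in the negative direction and 1 in the positive, against 4.39% and 4.50% of all genes, and with the 12 LNCaP arrays alone 2 and 1 did. The integrated stress response median was 0.98 at 24 h and 1.06 at 48 h, with 6 of 31 genes differing, all in the positive direction, among them DDIT3 (0.92, adjusted p = 5.0e-05) and ATF3 (1.22, adjusted p = 1.9e-06).

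Other groups differed more between the times. Proteasome subunits had 9 higher and 0 lower at 24 h, and 0 higher and 13 lower at 48 h, with the median at 0.19 and then -0.18, and the difference passed in 13 of 31 genes, each time in the negative direction (background 4.39%). With the 12 LNCaP arrays alone 7 passed. PSMA2 was at 8.68, 9.19 and 8.89 with Siomycin A at 24 h, against 8.74, 8.52 and 8.68 with DMSO. Its effect at 24 h (0.27 ± 0.11) and at 48 h (-0.52 ± 0.11) differed by -0.79 (adjusted p = 0.0032). Splicing factors had 13 lower at 24 h and 23 at 48 h, with medians of -0.23 and -0.69, and 15 of 31 differed, all in the negative direction, SRSF2 by -1.16 (adjusted p = 3.4e-06). Ribosome biogenesis genes differed in 7 of 24, also all negative (3 with the 12 LNCaP arrays alone). Androgen receptor targets ran the other way, with 4 higher and 8 lower at 24 h and 13 higher and 8 lower at 48 h, medians of -0.22 and 0.41, and 11 of 26 differing in the positive direction (background 4.50%) and 2 in the negative. TMPRSS2 was at 11.32, 10.79 and 11.10 with Siomycin A at 24 h, against 10.75, 10.82 and 10.77 with DMSO, so the groups overlapped then (0.29 ± 0.23), and the effects differed by 1.72 (adjusted p = 0.0026). For these targets the DMSO arrays had themselves moved, by a median of -0.26 between 24 h and 48 h with 3 of 26 genes called lower, and the part of this step in the difference was not tested. CDKN1A, with 0.33 ± 0.12 at 24 h, differed by 1.05 (adjusted p = 0.00073).

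**Figure D4:**
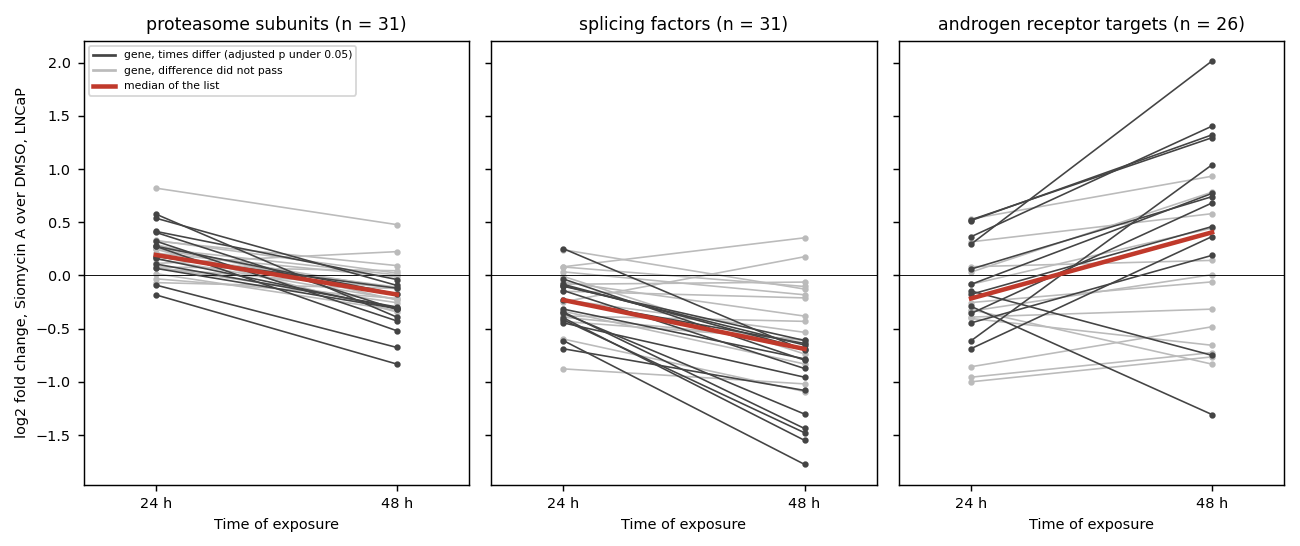
Log2 fold change of Siomycin A over DMSO in LNCaP (vertical axis) at 24 h and 48 h for each tested proteasome subunit (31 genes), splicing factor (31) and androgen receptor target (26), with dark lines where the effects differed (adjusted p under 0.05), pale lines where the difference did not pass, and a red line for the median. The medians go down in the first and second panel (0.19 and -0.18, then -0.23 and -0.69) and up in the third (-0.22 and 0.41).

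Single genes with a large difference between the times were spread over many functions. AKR1C2, an aldo-keto reductase that inactivates dihydrotestosterone, was at 8.67, 9.15 and 8.54 with Siomycin A at 24 h, against 6.15, 5.87 and 5.52 with DMSO (2.94 ± 0.21), and at 5.86, 6.48 and 6.03 at 48 h, against 5.52, 5.24 and 5.42 (0.73 ± 0.21, adjusted p = 0.0089). The effects at 48 h and 24 h differed by -2.21 (adjusted p = 0.00013), and its call at 48 h was lost without Siomycin A replicate 2 (adjusted p = 0.065). RPL22L1 was at 8.04, 8.06 and 7.95 with Siomycin A at 24 h, against 8.15, 8.21 and 8.31, and at 6.03, 6.12 and 6.21 at 48 h, against 8.44, 8.42 and 8.43, a difference of effects of -2.10 (adjusted p = 6.2e-10). CFAP69 (1.91) and RASD1 (1.80) were the largest differences in the positive direction.

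In PC3 at 48 h, 6105 genes were called (45.8%), 2598 higher (19.5%) and 3507 lower (26.3%), and the effects in LNCaP and PC3 differed in 5766 genes (43.2%). The lines were grown in different media, and the PC3 DMSO arrays at 48 h had changed from those at 24 h in 3774 genes (28.3%), 1922 higher (14.4%) and 1852 lower (13.9%), so line, medium and this step of the PC3 controls cannot be told apart in these differences. Integrated stress response genes, with a median of 1.06 in LNCaP, had -0.71 in PC3, where 7 rose and 19 fell, and the effects differed in 29 of 31 genes, all with the higher effect in LNCaP (background 24.2%). In the PC3 DMSO arrays 30 of these 31 genes had risen between 24 h and 48 h, by a median of 1.47. TRIB3 is an example, with 2.22 in LNCaP and -1.15 in PC3 (difference 3.37, adjusted p = 4.5e-14). DDIT3 was higher in both lines, by 3.58 and 1.87. Mitosis genes had medians of -1.39 and -0.26 and differed in 43 of 48, and in the PC3 DMSO arrays 46 of 48 had fallen between the times. Proteasome subunits had medians of -0.18 and 0.58, with 26 of 31 higher in PC3, and cytosolic chaperones -0.31 and 0.41. In the PC3 DMSO arrays 19 of 31 proteasome genes had fallen between the times (median -0.38), as had 16 of 23 chaperones (median -0.54). Interferon-induced genes had medians of 0.05 and -1.26, with 24 of 28 lower in PC3, and in the PC3 DMSO arrays 20 of the 28 had risen between the times. HMOX1 rose in both lines, by 1.06 in LNCaP and 3.27 in PC3 (difference -2.21, adjusted p = 9.9e-09). NDRG1 (1.40 and 2.05), SAT1 (1.64 and 2.32) and GABARAPL1 (1.82 and 2.76) also rose in both.

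**Figure D5:**
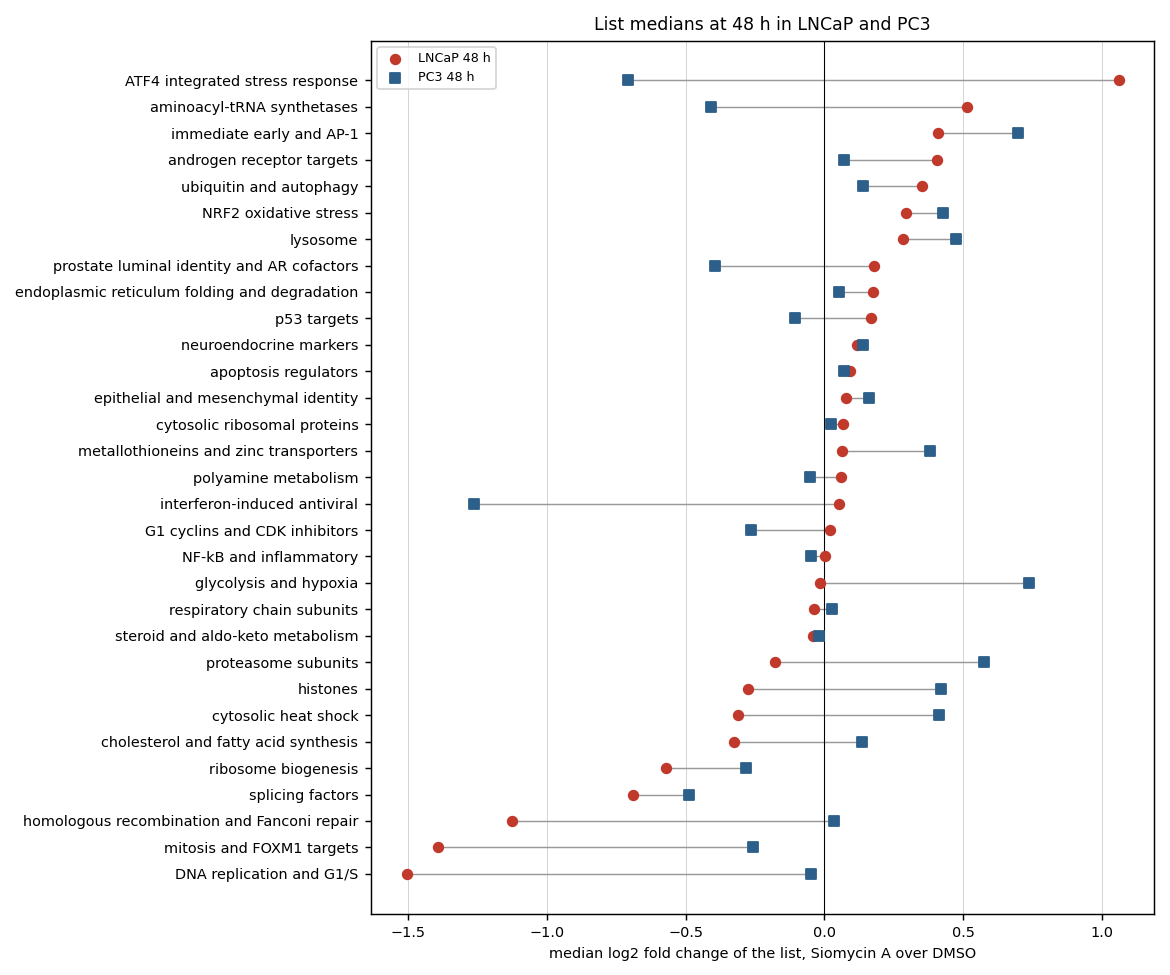
Median log2 fold change of Siomycin A over DMSO at 48 h (horizontal axis) for 31 gene lists in LNCaP (red circles) and PC3 (blue squares), joined by a line and ordered by the LNCaP median. The integrated stress response (1.06 in LNCaP and -0.71 in PC3) and interferon-induced genes (0.05 and -1.26) lie to the right in LNCaP, and proteasome subunits (-0.18 and 0.58) and mitosis genes (-1.39 and -0.26) to the left.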

How the data were processed

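Total RNA from LNCaP and PC3 cells was measured on 24 Illumina bead arrays, 3 in each of 8 groups. The authors deposited raw probe intensity with a detection p-value for each probe and array, and a table of log2 values that equalled the logged quantile-normalized intensity. Per the submitters' processing notes lumi was used, version not given in the sources used here. The raw intensities were background-corrected (normexp, offset 16), quantile-normalized and put on the log2 scale with limma 3.58.1 in R 4.3.3. The deposited detection p-value is low for dim as well as bright probes, so the background centre was taken from probes with p above 0.9 in place of limma's neqc, which the design had named, and a probe counted as above background only at p under 0.01 and a signal above that centre. Probes above background on at least 3 arrays were kept (25215 of 47318), and the brightest probe stood for a gene, which gave 13344 genes. A model of 8 group means over all 24 arrays gave each contrast (16 residual and 3.36 prior degrees of freedom), with Benjamini-Hochberg adjustment over all genes and a threshold of 0.05. The number of arrays limits the precision. Tested on simulated data for the LNCaP comparison at 48 h (13344 genes), the fit recovered 92% of 100 genes changed by 1 on the log2 scale and 34% of 100 changed by 0.5. Far fewer genes changed in the simulation than the 4987 called in the data. Benjamini-Hochberg adjustment is stricter with fewer changed genes, so these shares do not carry over to the data.

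Where all 3 arrays of a group missed a gene, its level there is only a bound, given as "at least N-fold" from the brighter group's mean and the dim group's floor (the higher of the gene's own signal and the lowest signal among probes above background). Gene lists were drawn up by hand, and the members and lists were chosen with earlier results of these data known. The rule for named genes was the 12 largest rises and falls, up to 3 rises and 3 falls in each list, the 6 largest differences each way against 24 h and against PC3, and a few fixed genes. Genes named outside this rule, such as ATF4, DDIT4, STC2, CTH, CEBPG, KIF4A and E2F2, were chosen after their values were seen. Other normalizations, filters, offsets, subsets of arrays, a replicate block and leaving out each array were tried.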

Additional observations from a re-analysis of the deposited data

Results flagged for a closer look

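The effect of Siomycin A in LNCaP at 48 h differed from that at 24 h in 1187 genes by the limma test of the difference. Among genes called at 48 h the largest differences upwards were CFAP69 (1.91), RASD1 (1.80), TARP (1.77), GLYATL2 (1.76), TMPRSS2 (1.72) and HPGD (1.65) on the log2 scale. TARP, a transcript of the T cell receptor gamma locus known from prostate cells, changed by 0.61 at 48 h and by -1.17 at 24 h, and HPGD, which inactivates prostaglandins, by 1.04 and -0.61. The largest differences downwards were AKR1C2 (-2.21), RPL22L1 (-2.10), FAM13B (-1.69), UFSP1 (-1.64), ACTRT3 (-1.62) and CBLN2 (-1.60). FAM13B and UFSP1 were near 0 at 24 h (-0.05 and -0.13), and ACTRT3, not above background with Siomycin A at 48 h, was at least 2.86-fold lower then.

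The effect at 48 h differed between LNCaP and PC3 in 5766 genes by the same kind of test. The largest differences upwards were S100P (4.62), RPS6KA2 (4.24), NIBAN1 (4.16), PCK2 (3.99), HPGD (3.92) and CHAC1 (3.80). RPS6KA2, a kinase downstream of ERK, changed by 1.39 in LNCaP and -2.84 in PC3. The largest downwards were H2BC11 (-4.21), CDT1 (-3.51), EYA3 (-3.14), LINC00161 (-3.01), CBLN2 (-2.96) and TUBA4A (-2.85). EYA3, a phosphatase and transcription cofactor, rose in both lines, by 0.54 in LNCaP and 3.69 in PC3, while TUBA4A, an alpha tubulin, changed by -0.63 and 2.22. The lines were grown in different media and the PC3 DMSO arrays had changed between 24 h and 48 h in 28.3% of genes, so these cannot be told apart from a difference between the lines.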

How the results depend on the processing

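The count of genes called in LNCaP at 48 h (4987) was between 4328 and 5485 over the other settings, and 4410 to 4554 with 1 array left out. The difference between LNCaP and PC3 (5766) was 4490 to 5989, and 5337 to 5587 with 1 array left out. Both lowest counts, 4328 and 4490, came from keeping only probes above background on all 24 arrays. That setting tested 7618 genes in place of 13344, so its counts are not comparable with the others. The difference between 48 h and 24 h (1187) depended more on the setting: 683 genes with median centring, 693 with the replicate block, 615 with the 12 LNCaP arrays alone, 892 to 1642 with 1 array left out (1642 without LNCaP Siomycin 24 h replicate 1), and 1795 without that array and PC3 Siomycin 48 h replicate 3, an alternative chosen after seeing the data. Of the 24 arrays, these 2 that were left out together had the lowest best correlations with another array (r of 0.987 and 0.988). Median centring gave 1950 higher and 2606 lower genes at 48 h. The replicate numbers did not pair the arrays (correlations of same-numbered deviations 0.00182, -9.43e-05 and -0.00259), and the replicate block gave 4646 calls at 48 h and 5389 between the lines. ZMAT3 reversed with the mean of its kept probes (0.597, adjusted p = 2.56e-05). Over all alternatives the named genes kept their side of the threshold and direction in 3653 comparisons, lost the call in 108 and gained it in 6. List medians stayed within the list's own spread between arrays in 483 comparisons and moved beyond it in 146. In the authors' log2 table the median of androgen receptor targets was 0.19 in place of 0.41. That of homologous recombination genes was -0.70 there in place of -1.13. Integrated stress response genes rose in 25 to 31 and mitosis genes fell in 45 to 47 in every setting run. The lowest counts, 25 of 26 and 45 of 45 tested, came from keeping only probes above background on all 24 arrays. With median centring 3 luminal genes, 3 ribosomal proteins and 3 polyamine genes rose in place of 5, 6 and 5. Respiratory chain genes, 2 higher and 4 lower, were 0 and 6 with median centring, 4 and 6 with probes above background on all 24 arrays, and 5 and 7 with an intensity trend. Androgen receptor targets differed between the times upwards in 8 to 13.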

Other observations

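Gene families that no list held are described here for LNCaP at 48 h, and were chosen after their values were seen. Of 79 mitochondrial ribosomal proteins, which build the ribosome of that organelle, 46 were lower (58.2%) and 4 higher (5.06%) with Siomycin A than with DMSO, against 18.4% and 19.0% of all genes, with a median of -0.32. MRPL18 had the largest fall (-1.15 ± 0.07, adjusted p = 1.4e-10 by limma). At 24 h 14 were lower and 2 higher, and the effects differed between the times in 19, all in the negative direction. Of 22 nucleoporins, which form the nuclear pore, 14 were lower and 0 higher, with a median of -0.42 at 48 h and -0.39 at 24 h. DEAD and DEAH box RNA helicases were lower in 27 of 48 and higher in 6, with medians of -0.05 at 24 h and -0.40 at 48 h.

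Subunits of the RNA polymerases were lower in 15 of 33 and higher in 2. POLR2L, a small subunit common to the nuclear polymerases, was at 7.56, 7.60 and 7.12 with Siomycin A, against 9.36, 9.40 and 9.39 with DMSO (-1.96 ± 0.15, adjusted p = 3.0e-09 by limma), and its change at 24 h was -0.44. Rab GTPases, which direct membrane traffic, ran the other way, with 17 of 52 higher and 2 lower and a median of 0.19. Of 384 zinc finger genes 63 were higher (16.4%) and 52 lower (13.5%), and of 244 solute carriers 53 were higher (21.7%) and 48 lower (19.7%), shares near those of all genes (19.0% and 18.4%).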
